A study of Mus musculus with 15 samples.

Results

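Distal open chromatin in mouse pancreatic tumour cells is described here, meaning autosomal peaks of accessibility that overlapped no protein-coding gene record and lay more than 50 kb from every protein-coding gene end. This rule, which used only position, took 10282 of the 67945 merged peaks in the count table. The values came from ATAC-seq, in which a transposase cuts accessible DNA so that reads in a region measure how open it was. Each library held tumour cells sorted from a tumour grown for 3 weeks under the skin of a C57BL/6 mouse from 1 cultured pancreatic tumour cell clone. The tumours were untreated, and a label on every clone gives its T cell class. The T cell high clones numbered 6, namely 7160c2, 6620c1, 6555c3, 6499c4, 6421c2 and 2838c3. The T cell low clones numbered 7. These were 6694c2, 6556c3, 6499c3, 6422c1, 2699c4 and the pair 6419c1 and 6419c5. Every clone had 1 library. The 2 T cell intermediate clones in the labels were not analysed here. The libraries held between 968296 and 7369228 counts in peaks. Nothing in the labels gives the driver alleles of the parental tumours, and a tumour grown under the skin is a model that lacks the pancreas around it.

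The sorted cells were checked against marker genes at peaks within 1 kb of a gene end. All 10 tumour epithelium markers, Krt19 and Epcam among them, had such a peak, and their summed level was 266 to 464 CPM (counts scaled to library size) in T cell high and 286 to 450 CPM in T cell low clones. Of 10 T and NK cell markers 2 had one (Cd4 and Cd247, summed 5.18 to 15.6 CPM in T cell high and 6.80 to 22.6 CPM in T cell low clones), and Cd3d, Cd3e and Cd8a had none. The 6 endothelial markers had none, and 4 of 6 leukocyte markers, Ptprc among them, had one, with sums of 36.9 to 67.8 CPM in T cell high and 44.5 to 85.4 CPM in T cell low clones. Of 7 macrophage and monocyte markers, Cd68 and Cx3cr1 had such a peak. Their sum was 14.9 to 37.6 CPM in T cell high and 9.33 to 35.1 CPM in T cell low clones. Of 7 fibroblast and pericyte markers, only Col1a1 had such a peak. It had 19.9 to 34.4 CPM in T cell high and 16.8 to 37.9 CPM in T cell low clones. So did 2 of 6 neutrophil and 1 of 5 B cell markers have a peak there.

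Distal accessible regions are mostly enhancers, insulators and promoters of noncoding transcripts. Enhancers are bound by transcription factors, among them AP-1, GATA and FOX proteins in epithelial cells, and act on promoters over long distances, so the nearest gene need not be the target. Distal elements are known to differ more between cell types than promoters do.

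Some distal peaks lay at annotated starts of noncoding genes or beside microRNA genes, and these are the places where reference sequence could be set beside the data. A promoter window of the RefSeq table for GRCm38.p6 (a short stretch around each gene start) was overlapped by 272 of the 10282 distal peaks, in 315 windows. The motif TGANTCA, bound by AP-1, was found on either strand in 72 of these windows (22.9%), against 2565 of all 32851 windows (7.81%). The letters TGATAA, which GATA factors bind, were in 13.7% of the windows at distal peaks and 9.05% of all windows. The FOX factor motif TGTTTAC was in 4.76% and 3.65%, and the core motif of the insulator protein CTCF was in 8.25% and 8.61%. The median GC content was 48.3% in the windows at distal peaks and 52.7% in all windows. These are matches of letters, not bound sites. All windows included those under no peak, and windows under the other classes of peaks were not counted apart. Whether the AP-1 share is particular to distal peaks was therefore not tested. The distal peaks away from such starts could not be read, since no genome sequence was used here.

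Shown are 4 windows under distal peaks, the first and last from those with the smallest p between the T cell groups and the middle ones from those with the highest level. Each is on the gene's strand, 5′ to 3′, in lower case, with motif matches in capitals (AP-1 in Gm19385 and D130051D11Rik, the CTCF core in Gm26901, none in Mir205hg). They lie at chr9:120866496-120866795 on the minus strand, chr15:85634346-85634645 on the plus strand, chr1:7398047-7398346 on the minus strand and chr1:193510161-193510460 on the minus strand.
Gm19385: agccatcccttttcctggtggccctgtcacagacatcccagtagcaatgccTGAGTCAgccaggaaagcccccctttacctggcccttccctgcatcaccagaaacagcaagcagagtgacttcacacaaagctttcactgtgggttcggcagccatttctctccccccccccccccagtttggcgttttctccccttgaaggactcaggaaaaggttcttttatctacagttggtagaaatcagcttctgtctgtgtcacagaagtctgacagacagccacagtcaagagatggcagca
D130051D11Rik: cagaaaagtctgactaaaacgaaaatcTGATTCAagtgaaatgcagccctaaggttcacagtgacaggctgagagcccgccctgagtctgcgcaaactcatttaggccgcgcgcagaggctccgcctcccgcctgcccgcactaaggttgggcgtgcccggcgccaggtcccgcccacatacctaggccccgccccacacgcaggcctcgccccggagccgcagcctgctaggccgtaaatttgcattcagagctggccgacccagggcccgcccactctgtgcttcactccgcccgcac
Gm26901: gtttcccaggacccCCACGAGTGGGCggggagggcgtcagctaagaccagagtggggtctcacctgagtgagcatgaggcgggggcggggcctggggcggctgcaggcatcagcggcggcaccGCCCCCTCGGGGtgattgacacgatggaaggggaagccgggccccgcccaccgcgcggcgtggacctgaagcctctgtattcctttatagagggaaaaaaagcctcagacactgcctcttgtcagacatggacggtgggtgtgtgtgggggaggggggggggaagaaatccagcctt
Mir205hg: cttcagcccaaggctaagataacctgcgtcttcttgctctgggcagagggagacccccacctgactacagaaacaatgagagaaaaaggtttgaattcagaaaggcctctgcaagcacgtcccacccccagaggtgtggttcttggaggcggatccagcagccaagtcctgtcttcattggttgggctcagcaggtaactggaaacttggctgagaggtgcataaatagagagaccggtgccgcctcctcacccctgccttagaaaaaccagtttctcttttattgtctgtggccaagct

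The peak at the start of Gm26901, 224 kb from the nearest protein-coding gene Pcmtd1, was the most accessible of the distal peaks at noncoding starts. It had 95.5, 157 and 192 CPM (lowest, median and highest) in T cell high clones and 88.1, 108 and 156 CPM in T cell low clones. The groups overlapped, and the log2 fold change was 0.40 ± 0.18 (SE; adjusted p = 0.720, edgeR quasi-likelihood test over all tested peaks). The peak over the start of D130051D11Rik, 52.3 kb from the WNT ligand gene Wnt7b, had 55.3, 79.7 and 112 CPM in T cell high and 51.7, 89.6 and 106 CPM in T cell low clones. The peak at Gm19385, 66.0 kb from the beta-catenin gene Ctnnb1, had 9.31, 20.1 and 44.7 CPM in T cell high and 4.02, 8.83 and 17.3 CPM in T cell low clones, and again the groups overlapped (log2 fold change 1.11 ± 0.40, adjusted p = 0.651, edgeR). The peak at the host gene of the epithelial microRNA miR-205, Mir205hg, had 1.59, 5.39 and 18 CPM in T cell high and 0, 2.14 and 4.67 CPM in T cell low clones (log2 fold change 1.74 ± 0.60, adjusted p = 0.613, edgeR).

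Of 1005 microRNA hairpins in the RefSeq table, 11 distal peaks lay within 1 kb of one. The mature microRNAs of the best known are shown because they name what such a peak sits beside. The seed (bases 2 to 8) is in capitals, and miR-29a-3p and miR-29b-3p share 1 seed.
miR-29a-3p: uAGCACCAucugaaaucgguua
miR-29b-3p: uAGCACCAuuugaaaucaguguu
miR-30a-5p: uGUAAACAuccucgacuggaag
miR-100-5p: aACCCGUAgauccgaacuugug
miR-125b-5p: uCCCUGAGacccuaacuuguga
miR-206-3p: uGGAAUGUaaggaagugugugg
miR-802-5p: uCAGUAACaaagauucauccuu
miR-344d-3p: gAUAUAACcacugccagacuga

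The peak beside Mir29a and Mir29b-1, a pair known for repressing collagen genes, lay 206 bp from the first hairpin and had 46.6, 56.7 and 66.8 CPM in T cell high and 39.2, 44.0 and 62.0 CPM in T cell low clones. Its SD over the clones was 0.25 on the log2 CPM scale, well under the distal median of 0.79. The peak beside Mir30a had 14.8, 23.7 and 39.7 CPM in T cell high and 8.01, 26.1 and 39.0 CPM in T cell low clones. Mir100 and Mir125b-1 share the host transcript Mir100hg, and the peak near Mir100 had 15.5, 19.8 and 36.1 CPM in T cell high and 5.57, 15.9 and 30.9 CPM in T cell low clones. The peak over the Mir344d-2 hairpin on chromosome 7 was the only one of the 10 tested peaks under an unadjusted p of 0.05 (adjusted p = 0.651, edgeR). It had 6.88, 8.99 and 10.9 CPM in T cell high and 0, 2.0 and 9.33 CPM in T cell low clones, and the groups overlapped.

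The distal peaks were short and weak. Their median length was 660 bp and their median level 6.87 CPM, against 1104 bp and 26.1 CPM for the 12524 peaks within 1 kb of a gene end, called gene-end peaks. They resembled the 36444 peaks from 1 to 50 kb away (645 bp, 7.17 CPM) and the 7131 peaks inside a gene but over 50 kb from all gene ends (670.0 bp, 7.13 CPM). The median distance to a gene end was 131 kb (interquartile range 78.5 to 249 kb), the largest was 2266 kb, and 885 peaks lay over 500 kb away. They fell into 1504 intervals between neighbouring protein-coding genes, and the 341 intervals with 10 or more held 62.3% of them. A noncoding gene record was overlapped by 2445 (23.8%), of which 2333 overlapped a long noncoding RNA. A filter on low counts kept 8567 (83.3%) for testing.

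At the limit itself, the 3 distal peaks closest to 50 kb lay near Cdkn2aip, Plet1 and Dock4 and had median levels of 10.3, 6.06 and 8.65 CPM in T cell high and 5.36, 4.69 and 3.71 CPM in T cell low clones. The 3 peaks just within the limit, near Lmntd1, Pde4d and Prkar2b, had 9.91, 16.6 and 3.58 CPM in T cell high and 12, 24.7 and 3.71 CPM in T cell low clones.

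The design asks where chromatin differs between T cell high and T cell low tumours. No distal peak differed after adjustment. The edgeR test called 0 of 8567 distal peaks at an adjusted p under 0.05, as it did over all 59252 tested peaks (0%), and the smallest adjusted p of a distal peak was 0.272. At an unadjusted p under 0.05 there were 775 distal peaks (9.05%), against 6.83% of all tested peaks. Of these, 497 had higher values in T cell high clones and 278 had lower ones, or 5.80% and 3.25% of the distal peaks, beside a background of 3.86% and 2.96%. The split was 419 higher and 361 lower when libraries were scaled on the distal peaks alone. The median log2 fold change was 0.09 over the tested distal peaks, 0.01 over all tested peaks and -0.06 over gene-end peaks, and by construction 0.01 when scaled on the distal peaks. Each library was a different clone, so p measures the spread between clones. The labels do not say whether clones whose names share a number are related, and all were treated as separate units. Fewer cells with an open site cannot be told apart from less opening per cell.

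Clone 2838c3, labelled T cell high, was nearer to T cell low clones in distal peaks and in the other classes alike, as given below, and the comparison moved without it. Without 2838c3 edgeR called 13 of 8633 tested distal peaks (0.151%), all higher in T cell high, against 0.0706% called of all peaks tested without it. There, 1231 distal peaks had an unadjusted p under 0.05, 713 higher and 518 lower. This was 14.3% of the tested distal peaks, beside 10.7% of all peaks tested without 2838c3. Clone 2838c3 was singled out from these same data, so the calls without it are a description and no separate support. With all clones DESeq2 called 11 distal peaks (0.128%), 9 higher and 2 lower, against 0.0794% called of all peaks, and 7 were among the 13. Those 7 lay nearest to Brinp3, Nuf2, Ufm1, Adcyap1r1, Pdzrn3, 1700015G11Rik and Chordc1.

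The share of peaks at an unadjusted p under 0.05 was larger in each farther distance class. It was 7.91% at 50 to 100 kb, 9.24% at 100 to 200 kb, 9.88% at 200 to 500 kb and 11.2% beyond 500 kb, while the median level was 7.26, 7.10, 6.34 and 5.98 CPM in the same order. Without the interval between Myc and Gsdmc, where 1 clone was raised as given below, the shares were 7.83%, 8.82%, 8.87% and 11%, so that the middle classes were nearly equal. Peaks deep inside genes had 7.91%, peaks 1 to 50 kb from a gene end 6.73% and gene-end peaks 5.14%. The plot of shares by distance shows the same order for the spread between clones, which without that interval was 0.74, 0.79, 0.83 and 0.94.

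**Figure D1:**
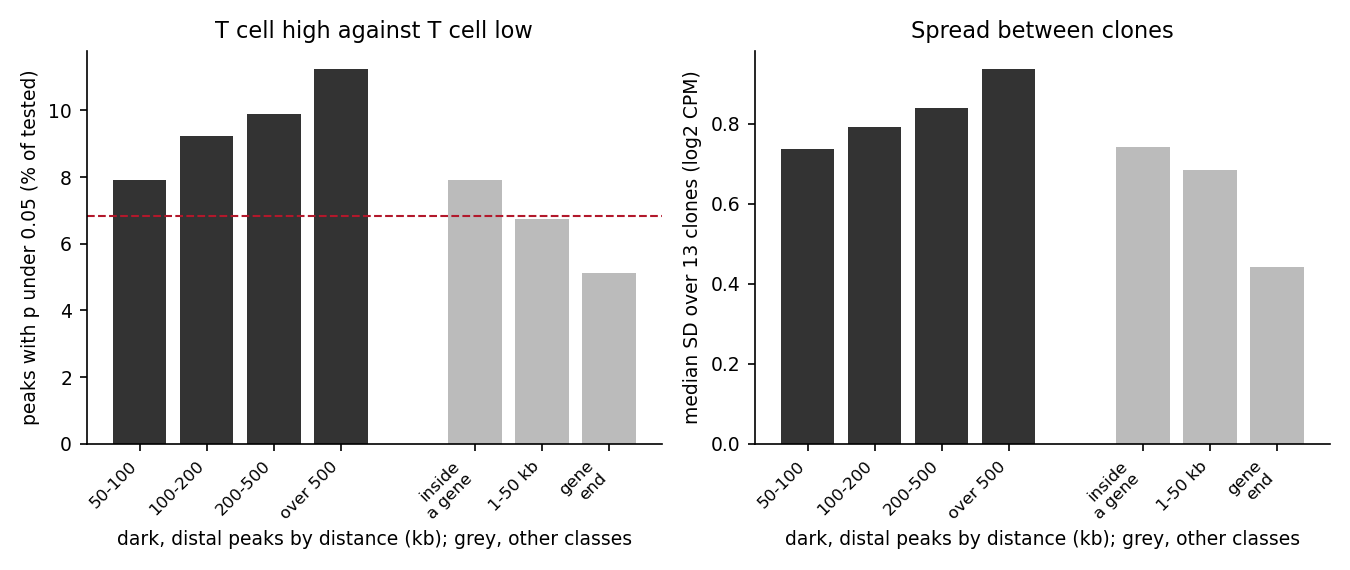
Distal peaks by distance to the nearest protein-coding gene end (dark bars) beside other autosomal peaks (grey bars). Left, percent of tested peaks with an unadjusted edgeR p under 0.05, with the dashed line at 6.83% for all tested peaks; right, median over peaks of the SD of log2 CPM over 13 clones. Both measures are larger in each farther class of distal peaks, reaching 11.2% and 0.94 beyond 500 kb.

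The 8 distal peaks with the smallest p among those higher in T cell high lay 73.5 to 734 kb from their nearest gene. Near Adcyap1r1, which encodes a neuropeptide receptor, the peak at chr6:55575003-55575563 inside the long noncoding RNA Gm34441 had 0.529, 11.4 and 32.7 CPM in T cell high and 0, 1.87 and 3.30 CPM in T cell low clones. Only 2838c3 among the T cell high clones lay within the T cell low range, and the log2 fold change was 3.14 ± 0.68 (SE; adjusted p = 0.342, edgeR). Near Pdzrn3, a ubiquitin ligase gene, the peak at chr6:101531181-101532204 had 1.06, 19.2 and 55.9 CPM in T cell high and 1.01, 3.85 and 7.47 CPM in T cell low clones (log2 fold change 2.52 ± 0.56, adjusted p = 0.351, edgeR).

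The peak 604 kb from Brinp3, a gene of neural development, had 1.85, 12.7 and 26.9 CPM in T cell high and 0, 2.44 and 5.10 CPM in T cell low clones, with a log2 fold change of 2.54 ± 0.59 (adjusted p = 0.431, edgeR). The peak 309 kb from Tent5a, which encodes a poly(A) polymerase, had 3.73, 11.2 and 17 CPM in T cell high and 0.670, 1.87 and 4.0 CPM in T cell low clones, a narrow overlap. The peak nearest to 1700015G11Rik had its lowest value of all 13 clones, 0.265 CPM, in the T cell high clone 2838c3. The other members of the 8, near Chordc1, Ufm1 and Nuf2, had log2 fold changes of 2.64, 2.82 and 1.58.

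Of the 8 lower peaks with the smallest p, 5 lay in the interval after Myc. The peak with the smallest p, at chr11:31503348-31504348 and 133 kb from the stanniocalcin gene Stc2, had 0.794, 1.36 and 2.99 CPM in T cell high and 4.33, 5.70 and 19.7 CPM in T cell low clones. Every T cell high value lay below every T cell low value, and the log2 fold change was -2.47 ± 0.51 (adjusted p = 0.272 by edgeR and 0.0133 by DESeq2). The peak 57.3 kb from Pcdh7, a protocadherin gene, had 0, 0.575 and 5.98 CPM in T cell high and 3.69, 6.05 and 16.4 CPM in T cell low clones. Near Tmem174, the peak inside the long noncoding RNA Gm41032 had 2.59, 9.22 and 19.1 CPM in T cell high and 17.6, 25.2 and 31.2 CPM in T cell low clones (log2 fold change -1.22 ± 0.33, adjusted p = 0.547, edgeR).

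**Figure D2:**
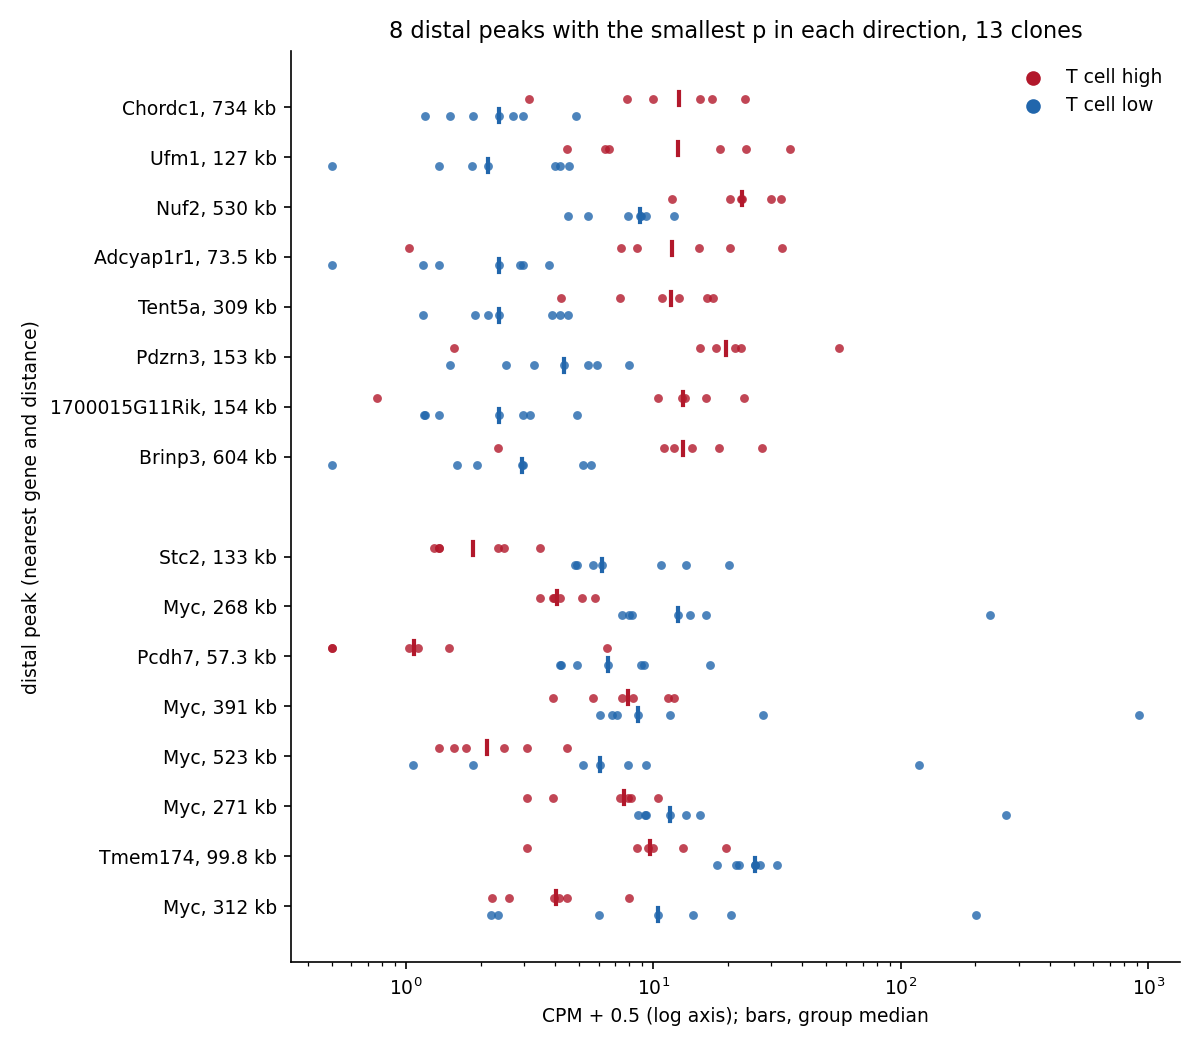
CPM (plus 0.5, log axis) of the 8 distal peaks with the smallest edgeR p that were higher in T cell high (upper rows) and the 8 that were lower (lower rows). Each point is 1 clone, T cell high in red above T cell low in blue, and bars are group medians. The groups do not overlap at the peaks near Stc2 and 268 kb from Myc, and in the rows named for Myc 1 T cell low clone, 2699c4, stands at 118 to 920.3 CPM.

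The groups did not overlap in 12 tested distal peaks (0.140%), a share not above the 0.162% of all tested peaks. Of the 12, 4 were higher in T cell high clones and 8 lower. Over all tested peaks, 0.0675% were separate and higher and 0.0945% separate and lower. The 4 higher ones, named after their values were seen, lay near Pmepa1, Kirrel3, Bpnt2 and Mettl15. The peak 109 kb from Pmepa1, which encodes an inhibitor of TGF-beta signalling, had 10.9, 14.3 and 17.5 CPM in T cell high and 3.35, 5.60 and 8.01 CPM in T cell low clones (log2 fold change 1.34 ± 0.32, adjusted p = 0.481, edgeR). Among the 8 lower ones, the peak 132 kb from the aryl hydrocarbon receptor gene Ahr had 3.99, 5.38 and 7.45 CPM in T cell high and 8.85, 9.72 and 22.9 CPM in T cell low clones. The others lay near Stc2, Myc, Nrip1, N6amt1, Ext1, Prl5a1 and Ino80d.

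The clones differed more from one another in distal peaks than in gene-end peaks. The median SD of log2 CPM over the 13 clones was 0.79 in distal and 0.44 in gene-end peaks, and it exceeded 1 in 26.4% of distal and 6.03% of gene-end peaks. Since weak peaks vary more by counting, classes were also weighted to the levels of the distal peaks. The mean absolute deviation of a clone from the mean of the others was then 0.69 ± 0.09 in distal and 0.61 ± 0.09 log2 units in gene-end peaks (SD over 13 clones). Distal peaks were wider in 12 of 13 clones than gene-end peaks, in 13 of 13 than peaks at 1 to 50 kb and in 12 of 13 than peaks deep inside genes. The mean difference was 0.09 to gene-end peaks and 0.08 to peaks at 1 to 50 kb, but only 0.03 to peaks deep inside genes. The difference to gene-end peaks was largest in 2838c3 (0.18) and 6421c2 (0.18), was 0.00 in 7160c2 and reversed in 6556c3 (-0.01), which were the 2 shallowest libraries. With all libraries thinned to 968296 counts the difference to gene-end peaks was 0.04 and held in 11 of 13 clones. The thinned difference to peaks deep inside genes was 0.02.

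**Figure D3:**
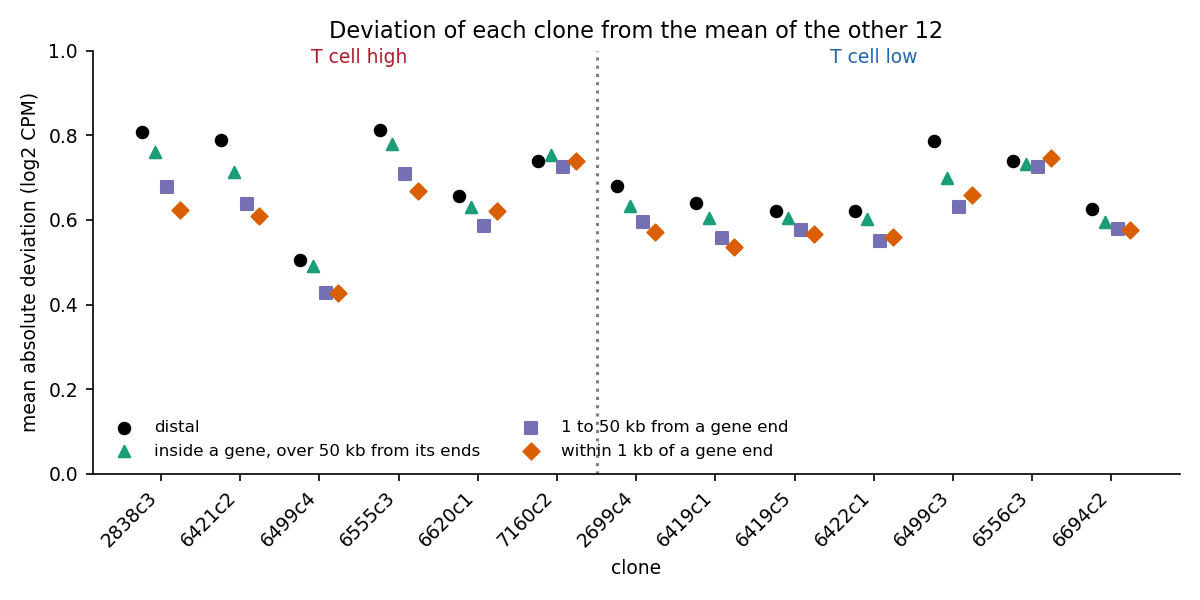
Mean absolute deviation of log2 CPM of each clone from the mean of the other clones, over tested peaks of 4 classes weighted to the levels of the distal peaks. T cell high clones are left of the dotted line and T cell low clones right of it. Distal peaks (black) are above gene-end peaks (orange) in every clone but 6556c3.

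Farther from genes the spread was wider at equal level as well. Among distal peaks of 3 to 4 log2 CPM, the median SD was 0.69 at 50 to 100 kb, 0.74 at 100 to 200 kb, 0.77 at 200 to 500 kb and 0.87 beyond 500 kb. Peaks overlapping a noncoding gene record had a median SD of 0.75 and those overlapping none 0.81. At noncoding promoter windows it was 0.67, with a median level of 10.3 CPM.

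The most variable distal peak outside the Myc interval, at chr1:114039157-114040136 and 1645 kb from Cntnap5a, had 0.529, 41.5 and 45.2 CPM in T cell high and 1.24, 3.57 and 31.3 CPM in T cell low clones. It was near 0 in 2838c3 and at 45.2 CPM in 6555c3, both T cell high. The peak near Gpc5, which encodes a heparan sulfate proteoglycan, ranged from 0 CPM in 6421c2 to 39.9 CPM in 7160c2, again 2 clones of the same label. At the other end, the peak 141 kb from Slc39a11 inside the long noncoding RNA 2610035D17Rik had 49.5, 58.1 and 77.0 CPM in T cell high and 44.8, 54.6 and 63.2 CPM in T cell low clones (SD 0.21 log2 CPM). A like SD of 0.21 was found near Arid1b, a chromatin remodeller gene, and near Ccdc54. The most accessible distal peak, 829 kb from Tyrp1, had 371, 627 and 1054 CPM in T cell high and 380.0, 604 and 1183 CPM in T cell low clones.

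Grouping of the clones by distal peaks followed their labels only in part. Spearman rho between clones over the 8567 tested distal peaks ran from 0.29 to 0.76 (median 0.54), against 0.80 to 0.93 (median 0.87) over gene-end peaks. Clones of the same label had a mean rho of 0.56 (36 pairs) and clones of different labels 0.53 (42 pairs), a difference of 0.03. These rho values share libraries and peak levels and are given as a description. Classes were not matched on level here, with a median of 6.87 CPM in distal and 26.1 CPM in gene-end peaks. With all libraries thinned to 968296 counts, the mean rho of same-label pairs fell from 0.56 to 0.43 in distal peaks. In gene-end peaks it fell from 0.88 to 0.79. The gap in rho between the classes therefore does not measure differences between clones alone. The nearest clone had the same label for 9 of 13 clones in distal peaks, 9 in peaks deep inside genes, 8 in peaks at 1 to 50 kb and 10 in gene-end peaks.

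The closest pair was 6499c4 and 6555c3 (rho 0.76), which 6620c1 joined, all T cell high. The third closest was 2838c3, labelled T cell high, with 2699c4, labelled T cell low (0.71), and they joined 6422c1 and 6694c2, both T cell low. The least alike pair was 2838c3 and 6555c3 (0.29), both T cell high. Without 2838c3 the difference between same-label and different-label pairs was 0.06. Clones 6419c1 and 6419c5, whose names share a number, were the fourth closest (0.69), while 6499c4 and 6499c3, which also share one but differ in label, ranked 34 of 78 pairs (0.56). Clone 7160c2, the shallowest library, joined last. Much of this pattern was not particular to distal peaks. Clone 2699c4 was also the nearest to 2838c3 in peaks deep inside genes (0.72), at 1 to 50 kb (0.75) and at gene ends (0.92). In these classes 6499c4 and 6555c3 were again the closest pair. The pair 2838c3 and 6555c3 ranked 78 of 78 in peaks deep inside genes and at 1 to 50 kb, and 67 at gene ends.

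**Figure D4:**
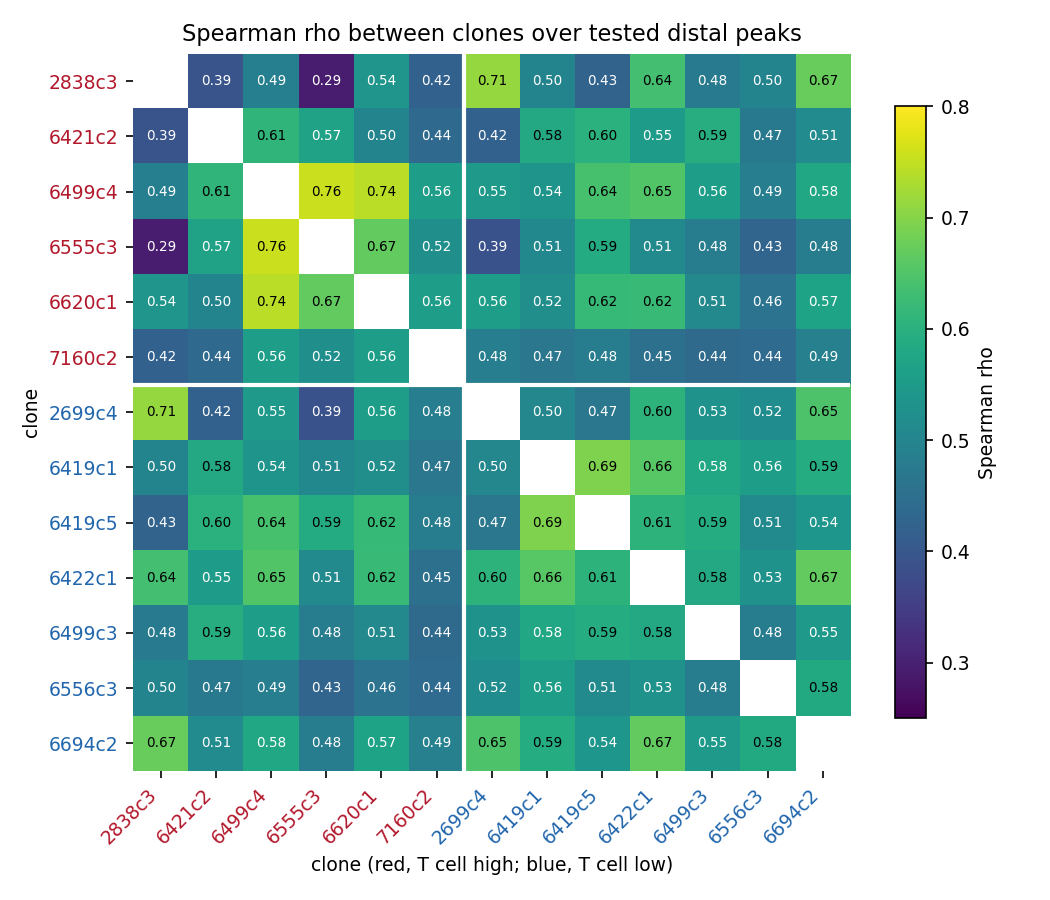
Spearman rho of log2 CPM between each pair of the 13 clones over 8567 tested distal peaks, with T cell high clones first (red names) and T cell low clones after them (blue names). The brightest block, 6499c4, 6555c3 and 6620c1, is of T cell high clones, and the lowest value, 0.29, is also between T cell high clones.

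Part of the spread ran along the chromosome. For neighbouring distal peaks less than 5 kb apart, the median Pearson correlation of their profiles over the 13 clones was 0.37 (1998 pairs). It was 0.28 at 5 to 20 kb, 0.33 at 50 to 100 kb, 0.26 at 100 to 500 kb and 0.11 beyond 500 kb, against 0.02 for peaks on different chromosomes (6276 pairs). With levels set relative to the surrounding non-distal peaks of each clone, as offsets for regional dosage, the values were 0.30 below 5 kb and 0.22 at 100 to 500 kb. These pairs share libraries and are a description.

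Blocks were looked for among autosomal peaks with a mean of at least 2 CPM. Values under 1 CPM were set to 1, so the weakest peaks could not count as low. Blocks of 5 or more consecutive peaks all at least 4-fold above or below the median of the other clones numbered 51. Of these, 27 held distal peaks. They held 155 distal peaks, and 11 blocks were distal throughout. The T cell low clone 6499c3 had 8 of the 27, all lower. Clones 6499c4, 6419c5 and 6556c3 had none.

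The block with the most peaks was in 2699c4, a T cell low clone, around Myc, which encodes a transcription factor that drives cell growth. From 61875029 to 62561648 on chromosome 15, a span of 687 kb, all 63 peaks were raised, and 52 of them were distal. The distal ones were 7.0-fold to 125-fold above the median of the other 12 clones (median 36.2-fold). The next peak on the left, at chr15:61864335-61865237, had 8.35 CPM in 2699c4 against a median of 15.6 CPM in the other clones, and the next on the right, at chr15:62569124-62569849, had 4.87 against 6.16 CPM. Copies of a region and its opening cannot be told apart in counts of this kind.

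**Figure D5:**
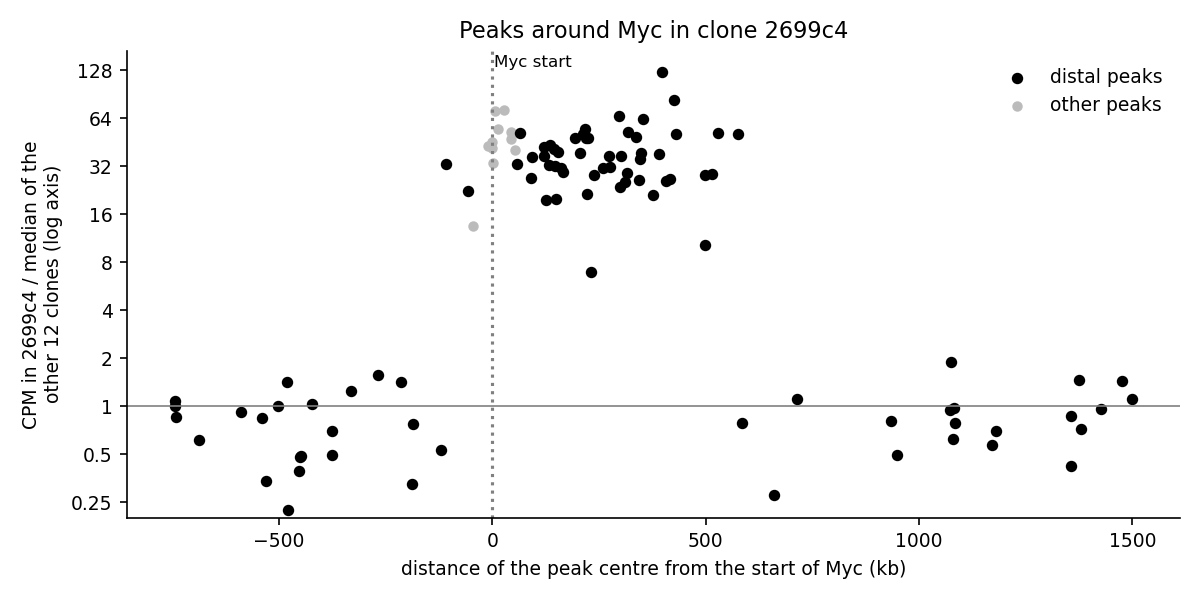
CPM in 2699c4 divided by the median of the other 12 clones (both at least 1 CPM, log axis) for each peak, against the distance of its centre from the start of Myc. Distal peaks are black and other peaks grey. All 63 peaks of a 687 kb block are at least 7.0-fold raised, and all plotted peaks on both sides lie below 2-fold.

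This block bears on the T cell comparison. The distal peaks of the block took 1.46% of all counts of 2699c4, against 0.0310% to 0.0580% in the other clones. Between Myc and Gsdmc there were 73 distal peaks, of which 61 were tested, and 40 of the 41 with an unadjusted p under 0.05 were lower in T cell high. The median relative level of these peaks was 4.40 log2 units in 2699c4 and from -0.80 to 0.14 in the other clones. Their median log2 fold change was -2.34 with 2699c4 and -0.24 without it. The peak at chr15:62257883-62258687, 268 kb from Myc inside the noncoding Pvt1, was separate between the groups, with 2.99, 3.58 and 5.28 CPM in T cell high and 7.0, 12.1 and 228 CPM in T cell low clones, and its log2 fold change was -1.38 without 2699c4. Leaving this interval out left 734 distal peaks with an unadjusted p under 0.05, 496 higher and 238 lower.

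The opposite was seen in 6694c2, a T cell low clone, beside Cdkn2a and Cdkn2b, the genes of cyclin-dependent kinase inhibitors often lost in pancreatic cancer. For runs of low peaks, autosomal peaks of every level were used and no floor was set, unlike for the blocks above. Over 230 kb from 89257656 on chromosome 4, 27 consecutive peaks were at or below 0.25 of the median of the other clones, and 18 were distal. These 18 held 4 reads in 6694c2, or 2.47 CPM in sum, against 163 to 341 CPM in the other clones, and 16 of them held none. Only 2 of the 14 tested had an unadjusted p under 0.05 between the T cell groups. Runs of 10 or more such low peaks with distal members were found in 2 other clones. The run near Cbln2 in 6421c2 held 10 distal peaks, and the run near Gas1 in 6499c3 held 7.

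Of the 27 blocks with distal peaks, 11 were raised, 7 of them in T cell high and 4 in T cell low clones. In 6555c3, 5 distal peaks near the neuronal adhesion genes Ctnna2 and Lrrtm1 were 7.91-fold to 23.8-fold above the median of the other clones. In 6620c1, 5 distal peaks in a row between Tenm3, which encodes a teneurin of neuronal adhesion, and Aga were 4.15-fold to 7.71-fold raised. Both clones are T cell high. In the T cell low clone 2699c4, 6 distal peaks in a row were 4.43-fold to 7.46-fold above the median of the other clones. They lay between Dcdc2c and Sox11, which encodes a transcription factor of neural development, 261 to 484 kb from the nearest gene. At some of them another clone was higher, as at chr12:27826033-27826791, with up to 42.9 CPM against 35.5 CPM in 2699c4.

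Between Ripk2 and Mmp16 all 10 tested peaks had positive fold changes (median log2 fold change 1.06, 6 with an unadjusted p under 0.05), and the T cell low clone 6499c3 was lowest there (-1.75 log2 units). Of 281 intervals with at least 10 tested distal peaks, 31 had a median log2 fold change over 0.5 and 4 under -0.5. With offsets for regional dosage, 18 were over 0.5, of which 15 were among the 31, and the same 4 were under -0.5. These intervals were picked for their values and carry no test. Among the 4 was Myc to Gsdmc, at -2.34 as measured and -2.23 with the offsets. There the offset of 2699c4 was -0.18 log2 units beside a relative level of 4.40, so the offsets did not take out the block around Myc.

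The richest intervals besides Myc to Gsdmc were Zeb2 to Acvr2a with 60 distal peaks, Slc10a2 to Efnb2 with 56, Adamts5 to N6amt1 with 54 and Klf4 to Actl7b with 51. Their median log2 fold changes were 0.21, -0.01, -0.48 and 0.19. The Adamts5 to N6amt1 value was -0.20 with offsets for regional dosage. By chromosome, the median log2 fold change of distal peaks was lowest on chromosome 16, at -0.24, where that of the other peaks was -0.28. It was highest on chromosomes 4 and 9, at 0.38 and 0.33, where the other peaks had 0.12 and 0.06. With offsets for regional dosage, the distal median was 0.03 on chromosome 16, 0.19 on chromosome 4 and 0.23 on chromosome 9. The offsets come from counts in nearby non-distal peaks, so they can take up shared opening as well as copies.

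Distal peaks were also grouped by whether the nearest gene belonged to 9 lists, and no list held a called peak. Beside the 5.80% higher and 3.25% lower of all distal peaks at an unadjusted p under 0.05, the neuronal adhesion and guidance genes had 27 higher and 6 lower of 293 tested peaks, with a median log2 fold change of 0.27. Their leading peak, 872 kb from Csmd3, had 2.12, 15.7 and 31.8 CPM in T cell high and 1.71, 2.78 and 9.35 CPM in T cell low clones (log2 fold change 2.17 ± 0.52, adjusted p = 0.481, edgeR). It was called without 2838c3 (adjusted p = 0.0409, edgeR). The list of AP-1, MYC and RAS-MAPK response genes had 8 higher and 42 lower of 146 peaks, 40 of the lower ones in the Myc interval raised in 2699c4.

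Endoderm and pancreas transcription factors had 7 higher and 2 lower of 111 tested peaks. A peak 325 kb from Foxa2, a pioneer factor of endoderm, had 6.62, 17.6 and 27.2 CPM in T cell high and 0.679, 3.02 and 13.2 CPM in T cell low clones (log2 fold change 1.78 ± 0.52, adjusted p = 0.581, edgeR). Mesenchymal transition and mesoderm factors had 2 higher and 2 lower of 60, and near the homeobox gene Meox2 a peak had 1.86, 21.7 and 35.3 CPM in T cell high and 3.00, 4.67 and 14.6 CPM in T cell low clones. Neural and other homeobox, POU and SOX factors had 4 higher and 5 lower of 111. A peak 130 kb from Sox6 had 0, 1.86 and 3.65 CPM in T cell high and 0.696, 7.47 and 30.8 CPM in T cell low clones.

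TGF-beta, BMP and activin genes had 5 higher and 1 lower of 109 tested peaks, led by a peak 148 kb from Fst, which encodes the activin inhibitor follistatin (log2 fold change 1.26 ± 0.41, adjusted p = 0.586, edgeR). WNT, NOTCH and Hippo genes had 3 higher and 2 lower of 81, led by a peak 88.4 kb from the R-spondin receptor gene Lgr5 (log2 fold change 1.22). Growth factors and their receptors had 10 higher and 3 lower of 130. A peak 106 kb from the VEGF receptor gene Kdr had 35.9, 59.2 and 77.4 CPM in T cell high and 20.7, 32.7 and 43.7 CPM in T cell low clones. Chemokines, cytokines and their receptors, the group nearest to T cell recruitment, had 1 higher and 0 lower of 41, with a median log2 fold change of -0.0022. That 1 peak, 83.1 kb from the chemokine gene Xcl1, had 1.59, 6.68 and 12.9 CPM in T cell high and 0, 2.09 and 5.85 CPM in T cell low clones.

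The share of a library's counts that fell in distal peaks was 10.7% ± 0.86 in T cell high (SD, n = 6) and 10.2% ± 1.20 in T cell low clones (SD, n = 7). The groups overlapped, with 9.24% to 11.6% in T cell high and 7.88% to 11.1% in T cell low. The lowest, 7.88% in 6499c3 (95% Wilson interval 7.85% to 7.91%, counting error only), was also the clone with the most low blocks. The difference between the means was 0.445 percentage points and 0.06 without 6499c3. It was 0.28 without 2838c3, 0.27 without 6620c1, 0.73 without 6421c2 and 0.60 without 2699c4. The share in 2699c4 was 11.1%, and 9.66% without the counts of the distal peaks in the block around Myc. No relation of the share to depth was detected (Pearson r = -0.29, permutation p = 0.334; Spearman rho = -0.30, permutation p = 0.324; r = -0.33 without 7160c2 and 6556c3, the libraries farthest from the median depth).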

How the data were processed

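The authors deposited raw counts, 1 whole number for every merged peak and library. Per the file headers, featureCounts 1.5.3 counted single reads without regard to pairs or strand, in alignments named as free of duplicates. The submitters' processing notes name the build mm10 and the tool DESeq2. Which aligner and peak caller made the peaks, and how peaks were merged, is not given in the sources used here. Both ends of a fragment can be counted in 1 peak, so intervals cover counting error only.

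Peaks were placed by 21887 protein-coding records of a RefSeq gene table for GRCm38.p6, the assembly that mm10 represents, which gives gene start and end but no exons. Counts were analysed with edgeR 4.0.16 in R 4.3.3 (filterByExpr by group, TMM scaling, quasi-likelihood F-test, two-sided, Benjamini-Hochberg adjustment over all 59252 tested peaks at 0.05). A positive log2 fold change means higher in T cell high. CPM are relative to TMM-scaled totals, and 2 was the prior count of log2 CPM. DESeq2 1.42.0, limma-voom (limma 3.58.1), other scalings, no filter, offsets for regional dosage (window medians of non-distal peaks within 2 Mb), thinning and other distance limits were alternatives. On counts simulated for this comparison over 56123 peaks, edgeR recovered 3 of 50 peaks changed 2-fold and 33 of 50 changed 4-fold. It recovered 50 of 50 changed 8-fold and 50 of 50 changed 16-fold, and called 5 of 55923 unchanged peaks. Each simulated peak was drawn independently, without blocks or related clones, and all changed peaks were planted in 1 fit. These rates therefore need not hold for the real peaks.

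Named peaks were the 8 with the smallest p in each direction, the 5 highest, most variable and least variable, the smallest p of each list, those at miRNAs and noncoding starts, and those nearest the 50 kb limit. The members and lists were chosen with earlier results of these data known. Columns were assigned to clones by name. Results for 1 interval are not reported here.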

Additional observations from a re-analysis of the deposited data

Results flagged for a closer look

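In groups of 6 or 7 clones, a value was taken up where its gap to the nearest other clone exceeded Dixon's 95% limit. This held for 19 of 134 groups examined. The limit is passed by about 1 in 20 groups of normal values that were not picked beforehand. Many of the groups here were peaks picked for their p, spread or level, so that rate is no yardstick for the 19. Of these, 9 came from 2699c4 in the Myc interval. There this T cell low clone had 228 CPM at the peak 268 kb from Myc, 920.3 CPM at 391 kb, 118 CPM at 523 kb, 266 CPM at 271 kb and 200.5 CPM at 312 kb, and 1730.2, 1268 and 1350.1 CPM at the 3 highest peaks, while its median relative level over the interval was 4.40 log2 units.

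Clone 2699c4 also stood apart near Meox2 (14.6 CPM) and near Pcdh7 (16.4 CPM). Near Pcdh7 the T cell high clone 7160c2, the shallowest library, had 5.98 CPM while the other T cell high clones lay between 0 and 0.995 CPM. Clone 7160c2 had 39.9 CPM at the variable peak near Gpc5. In T cell low clones, 6422c1 had 25.8 CPM near Wdr20rt and 31.6 CPM beside Mir125b-1. Clone 6419c5 had 9.35 CPM near Csmd3 and 41.2 CPM beside Mir802, and 6556c3 had 5.60 CPM at Mir344. Between Adamts5 and N6amt1, 6499c3 was lowest among T cell low clones at -0.53 log2 units.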

How the results depend on the processing

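The number of called distal peaks was 0 under every planned setting except DESeq2 (11) and leaving out 1 clone (0 to 13, the highest without 2838c3). The cause was not tested. The count at an unadjusted p under 0.05 was 218 of 2231 tested peaks when all gene records, noncoding ones included, were kept clear, since fewer peaks met the rule, and 558 to 1231 with 1 clone left out. The last 2 counts were 6.98% and 14.3% of tested distal peaks, beside 5.56% and 10.7% of all tested peaks. The number of distal peaks was 15996 at a limit of 20 kb, 6459 at 100 kb and 2767 with all gene records. With 1 clone left out, the median log2 fold change ran from 0.01 (without 2838c3) to 0.12, and the difference in spread to gene-end peaks from 0.08 to 0.09 log2 units. The difference in rho by label ran from 0.02 to 0.06. With offsets for regional dosage 756 distal peaks had an unadjusted p under 0.05 (484 higher, 272 lower). With 6419c1 and 6419c5 summed into 1 library, 729 of 8271 tested distal peaks did (486 higher, 243 lower). This was 8.81%, beside 6.74% of all tested peaks. Leaving out the Myc interval, an alternative added after the data were seen, gave 734. No result reversed. Peaks of a few CPM in the shallowest libraries rest on few reads, which limits their folds. No paired analysis was possible because replicate numbers were given in accession order and link no clones across groups.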

Other observations

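Distal peaks were unevenly spread over the genome. They made up 22.0% of the autosomal peaks of chromosome 13 and 21.4% of those of chromosome 3, but 7.03% on chromosome 7 and 7.42% on chromosome 11. With every library thinned to 968296 counts, the share of distal peaks with at least 1 read was 83.5% to 95.6% in T cell high and 79.0% to 94.0% in T cell low clones, against 93.7% to 98.8% and 92.6% to 98.8% of gene-end peaks.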
